A study of Mus musculus with 4 samples.

Results

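A set of 10 genes of the Wnt pathway and the primitive streak was followed in female mouse embryonic stem cells (ESCs): the ligand genes *Wnt3*, *Wnt4*, *Wnt7b*, *Wnt8a* and *Wnt9a*, the nuclear factor genes *Lef1* and *Tcf7*, the target genes *Axin2* and *Sp5*, and the early mesoderm gene *Mesp1*. They were picked by name, and the choice was made with their response to GSK-J4 known, so their values are a description and were not tested. Of the 10 genes, 9 have a value among the 9779 genes analysed, each from 1 row of the tables, and *Sp5* was not analysed here. RNA-Seq was performed on LF2 cells, a single ESC line of strain 129/J, which were grown on feeder cells and then passaged without them. Treatment lasted 24 hr. The 4 groups received PBS and DMSO (PBS+DMSO), PBS and 10 µM GSK-J4 (PBS+GSK-J4), 50 µg/ml L-ascorbic acid (AA) and DMSO (AA+DMSO), or AA and GSK-J4 together (AA+GSK-J4). GSK-J4 enters cells and inhibits the H3K27 demethylases Utx and Jmjd3, and AA is a cofactor of the enzyme family to which they belong. GSK-J4 is not specific to them. The authors reported raised H3K4me3 at *Xist*, *Nodal* and *HoxC13*, which it induced, and concluded that it also inhibits H3K4 demethylation. Each group is 1 library, so no difference has a replicate and no p-value is given. Sets of 4 values below keep the order of the groups as named here.

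Wnt proteins are secreted lipid-modified ligands that bind Frizzled and Lrp5/6 receptors on nearby cells. In the canonical branch, binding stops the destruction complex built on Axin from degrading beta-catenin, which then enters the nucleus and works through the TCF/LEF factors. Wnt3 is needed in the mouse embryo to form the primitive streak, where mesoderm arises, and canonical Wnt signalling also helps ESCs to keep renewing themselves.

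Values are in FPKM, in which fragment counts are divided by exon length and by the mapped fragments of the library, so that levels can be compared between genes. The 9 genes lie near the bottom of the range measured. The median gene had 7.59 to 8.23 FPKM in the 4 libraries, and between 8.16% and 11.95% of genes were below 1 FPKM. In PBS+DMSO the highest of the 9 genes was *Axin2* at 1.22 FPKM, and 1396 of the 9779 genes were lower. No library listed any of the 9 above 3.04 FPKM. The floor itself is lower still: after the 57 to 92 genes per library that are listed at 0, the 1st percentile of the other genes was 0.118, 0.321, 0.101 and 0.246 FPKM. *Wnt3*, *Wnt4*, *Wnt8a* and *Wnt9a* were above that mark in every library. *Mesp1* was under it in the DMSO libraries and over it in the GSK-J4 libraries.

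How many reads stand behind such values decides how far they can be read. Values of weakly expressed genes moved in steps of whole reads, and the steps give the library size that was used in the FPKM values. Relative to PBS+DMSO it was 0.795 in AA+DMSO, 1.28 in PBS+GSK-J4 and 1.05 in AA+GSK-J4. This is called relative depth here, and it can differ from the number of reads sequenced. Steps alone hardly separate a ratio from its double, so the ratios were taken at which even and odd numbers of reads were about equally common over 857 genes. There 45.9% to 51.0% of the numbers were even in each library, whereas 22.6% to 76.4% were at the next 3 choices. For 6 of the 9 genes (*Wnt3*, *Wnt4*, *Wnt8a*, *Wnt9a*, *Axin2* and *Mesp1*) the 4 values are whole multiples of 1 read. The numbers of reads given here are the smallest that come out whole, so the true numbers are these or a common multiple of them. The 95% intervals are exact and treat each as 1 independent read. They cover counting error only, not the spread between cultures. For *Lef1* no whole reads gave the 4 values. *Wnt7b* and *Tcf7* are each listed at 0 in 1 library, and no fit was tried for such genes. No interval is given for *Wnt7b*, *Lef1* and *Tcf7*.

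The cells carried the markers of their label. All 10 ESC marker genes had a value, and their levels summed to 2448, 1428, 2215 and 1286 FPKM. *Pou5f1*, which encodes Oct4, was at 867, 510.2, 799.9 and 479.7 FPKM in that order. Of the fibroblast markers that feeder cells would bring, 6 of 13 had a value and none of these was at 0. Their sum was 27.5, 38.3, 24.2 and 33.4 FPKM in the same order, so it was higher in both GSK-J4 libraries. Of 6 endoderm markers 1 had a value, *Sox7*, at 1.61, 0.867, 1.17 and 0.697 FPKM. Of 7 trophoblast markers 3 had a value, and these summed to 15.8, 18.4, 23.2 and 21.4 FPKM. The part of these cell types in the values below was not tested. In bulk RNA, more cells that express a gene and more RNA per cell cannot be told apart.

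All 5 ligand genes were higher in the GSK-J4 library than in its DMSO control, both without and with AA, and *Wnt3* reached the highest level of the 9 genes. Over all 9779 genes, 38.4% were higher by any amount without AA and 39.3% with AA. The ligands were chosen on this difference. *Wnt3* (chr11, 103774017 to 103817927, mm10) was at 0.299 FPKM from 19 reads in PBS+DMSO and at 3.04 FPKM from 248 reads in PBS+GSK-J4. With AA it was at 0.139 FPKM from 7 reads under DMSO and at 1.58 FPKM from 105 reads under GSK-J4. Both GSK-J4 libraries are thus far above both DMSO libraries, and within each pair the AA library is the lower one. The FPKM ratio of GSK-J4 to DMSO was 10.2 without AA (95% counting interval 6.38 to 17.2) and 11.4 with AA (5.33 to 29.0). On the log2(FPKM + 1) scale used for all genes these ratios are 1.64 and 1.18, smaller than the FPKM ratios because the added 1 weighs heavily at such levels.

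*Wnt9a* (chr11, 59306955 to 59332819), a ligand of the canonical branch, was at 0.278, 2.06, 0.287 and 1.63 FPKM, from 28, 266, 23 and 172 reads. The DMSO libraries were alike and the GSK-J4 libraries were both higher, by an FPKM ratio of 7.41 without AA (5.01 to 11.4) and 5.67 with AA (3.66 to 9.19). *Wnt4* (chr4, 137277670 to 137296845), best known from kidney and female reproductive tract development, was at 0.353, 1.57, 0.381 and 1.30 FPKM in the same order. The smallest whole numbers of reads behind *Wnt4* are 7, 40, 6 and 27. With these, its ratios of 4.46 (1.97 to 11.8) and 3.41 (1.38 to 10.1) have the widest intervals for their size among the ligands. If the true numbers are a multiple of these, the intervals of *Wnt4* are too wide, and this was not settled. *Wnt8a* (chr18, 34542248 to 34549646), a ligand expressed in the early streak of the embryo, was at 0.369, 1.34, 0.267 and 0.891 FPKM from 47, 218, 27 and 119 reads. Its ratios of 3.62 (2.63 to 5.07) and 3.34 (2.19 to 5.28) were the smallest of the 4 ligands that could be counted in reads, although the interval of *Wnt4* covers them.

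*Wnt7b* (chr15, 85535444 to 85581587), known from placenta, lung and skin, differs from the other ligands. It is listed at 0 in PBS+DMSO and stood at 2.10 FPKM in PBS+GSK-J4, while with AA it was at 1.14 FPKM under DMSO and 1.34 under GSK-J4. The 2 values with AA lie close together, so the log2(FPKM + 1) ratio of GSK-J4 to DMSO was 0.13 with AA, against 1.63 without AA. The large difference without AA thus rests on the 0 of 1 library. The RefSeq annotation holds 3 curated proteins for *Wnt7b*, 7 for *Lef1* and 2 for *Tcf7*, and 1 for each of the 6 genes counted in reads, while the tables hold 1 row for each of the 9. GENCODE M21 differs, with 4, 4 and 1 distinct coding sequences for the first 3 and 5 for *Axin2*. For a gene with several transcripts, the value depends on how reads were divided among them, which cannot be checked from these values.

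In PBS+GSK-J4 the ligands ranked *Wnt3*, *Wnt7b*, *Wnt9a*, *Wnt4* and *Wnt8a*. The interval of *Wnt3* (2.68 to 3.45 FPKM) does not reach that of *Wnt9a* (1.82 to 2.32), whereas *Wnt9a* overlaps *Wnt4* (1.12 to 2.14) and *Wnt4* overlaps *Wnt8a* (1.16 to 1.52). The overlaps of *Wnt4* hold at its smallest whole numbers of reads. In AA+GSK-J4 *Wnt9a*, *Wnt3*, *Wnt7b* and *Wnt4* followed each other from 1.63 down to 1.30 FPKM, with overlapping intervals for those counted in reads. In PBS+DMSO the 4 ligands counted in reads lay between 0.278 and 0.369 FPKM and could not be told apart by their intervals.

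**Figure D1:**
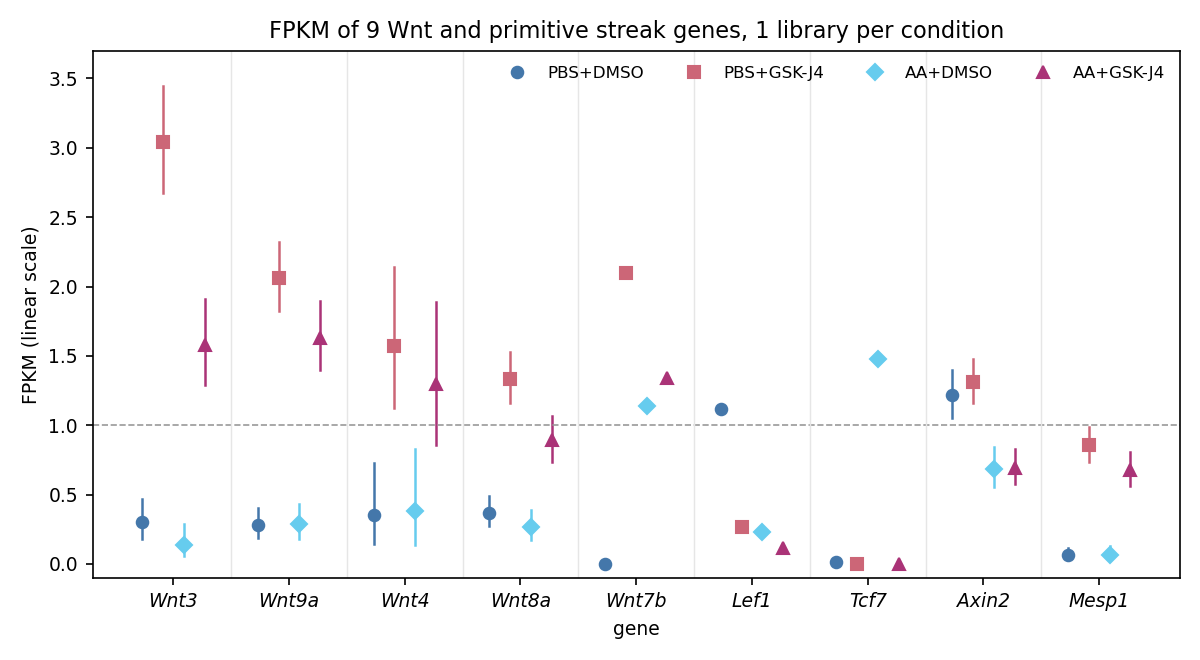
FPKM (linear axis) of the 9 genes in the 4 libraries, 1 point per library, with bars for the exact 95% counting interval of the 6 genes counted in whole reads and a dashed line at 1 FPKM. The GSK-J4 libraries (squares and triangles) stand above the DMSO libraries (circles and diamonds) for *Wnt3*, *Wnt9a*, *Wnt4*, *Wnt8a* and *Mesp1*, *Axin2* separates by AA instead, and *Wnt7b*, *Lef1* and *Tcf7* each have 1 library apart from the other 3.

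The nuclear factors did not follow the ligands. *Lef1* (chr3, 131110326 to 131224292), a TCF/LEF factor that is itself a Wnt target, was at 1.12, 0.266, 0.234 and 0.114 FPKM. Its value was highest in the library without either compound and low in the other 3, and in both GSK-J4 libraries it was below the 1st percentile of the genes above 0. The log2(FPKM + 1) ratio of GSK-J4 to DMSO was -0.74 without AA and -0.15 with AA. *Tcf7* (chr11, 52252306 to 52283159), which encodes TCF1, was at 0.0162 FPKM in PBS+DMSO, was listed at 0 in PBS+GSK-J4 and was at 0.000858 in AA+GSK-J4. It reached 1.48 FPKM in AA+DMSO alone, and with AA the log2(FPKM + 1) ratio of GSK-J4 to DMSO was therefore -1.31, while it was -0.02 without AA. A value between 0 and 0.01 FPKM, as in AA+GSK-J4, was found in only 29 to 59 genes per library. Each difference of *Tcf7* past 2-fold rests on the AA+DMSO library.

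*Axin2*, which encodes a scaffold of the destruction complex and is used as a general readout of canonical Wnt signalling, was at like levels under GSK-J4 and DMSO. *Axin2* (chr11, 108920465 to 108950750) was at 1.22, 1.31, 0.686 and 0.691 FPKM, from 203, 281, 91 and 121 reads. No other of the 6 genes counted in reads had as many reads in the first 3 libraries. The ratio of GSK-J4 to DMSO was 1.08 without AA (0.898 to 1.30) and 1.008 with AA (0.762 to 1.34), and both counting intervals include 1 at the deposited scaling. They do not cover the choice of scaling, which moves these ratios as given below.

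*Mesp1* (chr7, 79792283 to 79796744), a transcription factor gene of the earliest mesoderm, stayed below 1 FPKM in every library and was higher in both GSK-J4 libraries. It was at 0.0646, 0.856, 0.0665 and 0.678 FPKM, from 11, 187, 9 and 121 reads. The DMSO values were alike and lay under the 1st percentile of the genes above 0, where 139 and 173 genes were lower. The FPKM ratio was 13.3 without AA (7.24 to 27.0) and 10.2 with AA (5.20 to 22.8), which on the log2(FPKM + 1) scale comes to 0.80 and 0.65.

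The stretch before the start of *Wnt3*, *Wnt9a* and *Axin2* is printed because the ligands stood higher under GSK-J4 while the ratio of the target *Axin2* was near 1. Sequences are from RefSeq on GRCm38.p6 (the build of mm10), 5′ to 3′ on the gene's strand, and end before the first annotated base of the gene in GENCODE M21 or the tables.
Wnt3 (chr11:103773925-103774016, plus strand): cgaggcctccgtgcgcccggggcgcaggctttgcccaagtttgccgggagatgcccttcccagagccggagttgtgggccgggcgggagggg
Wnt9a (chr11:59306680-59306927, plus strand): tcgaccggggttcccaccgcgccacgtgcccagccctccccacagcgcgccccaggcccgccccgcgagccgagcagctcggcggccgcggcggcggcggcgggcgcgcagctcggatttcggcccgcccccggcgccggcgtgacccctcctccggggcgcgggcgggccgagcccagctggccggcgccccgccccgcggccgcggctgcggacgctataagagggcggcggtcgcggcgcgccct
Axin2 (chr11:108920099-108920348, plus strand): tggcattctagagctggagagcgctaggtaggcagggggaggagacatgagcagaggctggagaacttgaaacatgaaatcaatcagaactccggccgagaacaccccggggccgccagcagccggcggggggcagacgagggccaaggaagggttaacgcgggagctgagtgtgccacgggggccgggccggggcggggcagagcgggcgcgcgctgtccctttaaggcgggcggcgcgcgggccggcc
They are rich in G and C, with 73.9% in the *Wnt3* (68.0% over its whole window), 84.3% in the *Wnt9a* and 69.2% in the *Axin2* stretch, against a median of 52.4% over all 250-base windows before a RefSeq start. The core that TCF/LEF proteins bind was searched as CTTTGAT on both strands in the 250 bases before the start. Of the 12 windows of the 8 genes in the RefSeq promoter table, 2 held it, 1 of *Mesp1* and 1 of *Sp5*, and of all 32851 windows 3.21% did. *Wnt7b* and *Wnt8a* had no window. In *Mesp1* the match lies in an exon of the GENCODE M21 model, outside the coding sequence, and is printed in capitals within 30 bases.
Mesp1 (chr7:79793603-79793632, minus strand): gctcgagccggCTTTGATatgctgatgaat
A match is a description of the letters and does not show a bound site.

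Of the genes counted in reads, *Axin2* was lower with AA than with PBS in both backgrounds by more than its counting error, and *Wnt3*, *Wnt8a* and *Wnt9a* were so only in the GSK-J4 libraries. These comparisons run across the 2 deposited tables and share libraries with the GSK-J4 comparisons. *Axin2* had an FPKM ratio of AA to PBS of 0.564 without GSK-J4 (0.435 to 0.725) and 0.527 with it (0.422 to 0.654). *Wnt3* had ratios of 0.463 (0.165 to 1.15) and 0.518 (0.408 to 0.653). These ratios were ranked on the log2(FPKM + 1) scale against genes reaching 1 FPKM in either library, 8843 without GSK-J4 and 9180 with it. *Axin2* was at the 4.72 and 4.44 percentile and *Wnt3* at the 16.3 and 1.85 percentile, in the same order. Without GSK-J4, *Wnt3* itself did not reach 1 FPKM. *Wnt8a* had ratios of 0.722 (0.433 to 1.18) and 0.668 (0.529 to 0.839), and *Wnt9a* of 1.03 (0.568 to 1.86) and 0.791 (0.649 to 0.962). The intervals of *Wnt4* and *Mesp1* include 1 in both backgrounds, with ratios of 1.08 and 1.03 without GSK-J4 and 0.826 and 0.791 with it. For *Mesp1* with GSK-J4 the upper bound is at 1. For *Wnt4* a multiple of its numbers of reads would narrow both intervals. Whether the ratio differs between the backgrounds was not tested. *Lef1* had ratios of 0.209 and 0.430, with no interval.

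**Figure D2:**
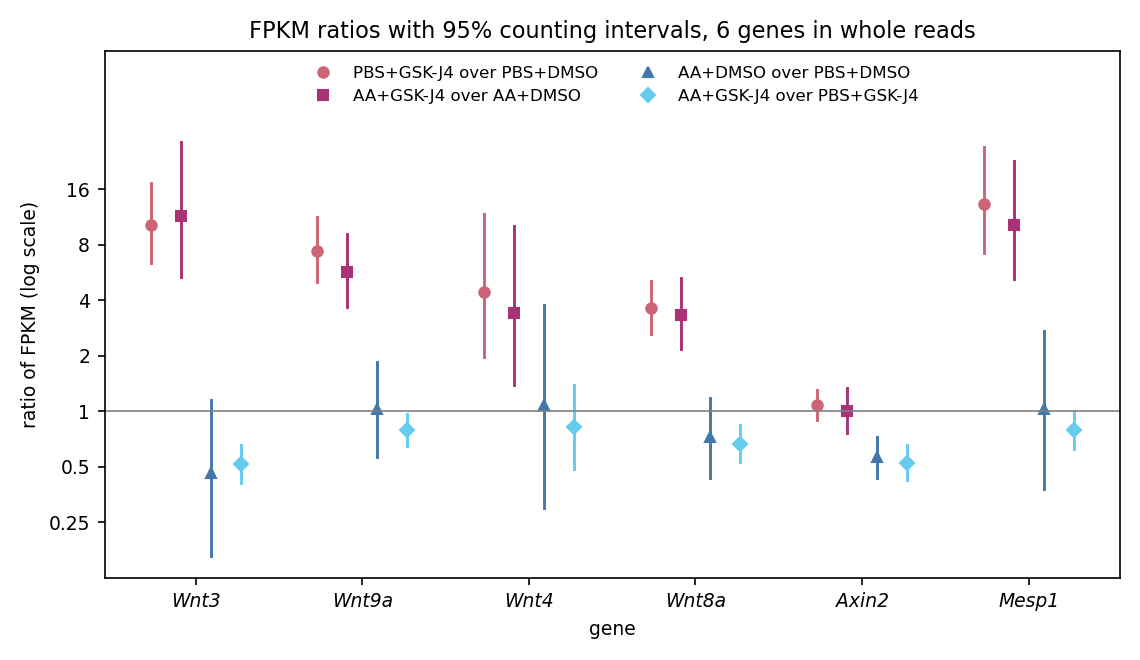
Ratios of FPKM (log axis) between pairs of libraries for the 6 genes counted in whole reads, with bars for exact 95% counting intervals that hold no spread between cultures. At the deposited scaling, the GSK-J4 ratios of *Wnt3*, *Wnt9a*, *Wnt4*, *Wnt8a* and *Mesp1* lie above 1 and the bars of *Axin2* include 1. Both AA ratios of *Axin2* and, in the GSK-J4 libraries, those of *Wnt3*, *Wnt8a* and *Wnt9a* lie below 1 with their bars.

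Set against all genes, the members at least 2-fold higher on the log2(FPKM + 1) scale were *Wnt3*, *Wnt7b* and *Wnt9a* without AA, 3 of the 7 that reached 1 FPKM in either library, where 4.96% of the 9196 such genes were. None of the 7 was at least 2-fold lower, where 3.5% of genes were. With AA, 2 of 5 were higher (*Wnt3* and *Wnt9a*, background 4.13% of 9139 genes) and 1 was lower (*Tcf7*, background 3.38%). For AA against PBS without GSK-J4, 2 of 4 were higher (*Wnt7b* and *Tcf7*, background 0.565%) and none lower (background 0.735%). With GSK-J4, 0 of 6 were higher or lower (background 0.512% and 0.599%). The genes were chosen on the GSK-J4 comparison and several pass this filter only through the library where they are high, so nothing is read from these counts.

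Starting level matters for the background. Genes that begin low tended to be higher under GSK-J4 and genes that begin high tended to be lower. Among the 515 genes below 0.5 FPKM in PBS+DMSO, 84.5% were higher in PBS+GSK-J4 by any amount, 21.4% by at least 2-fold, and the median log2(FPKM + 1) ratio was 0.57. Of the 9 Wnt and streak genes 7 began in this range, of which 6 were higher, 3 by at least 2-fold, with a median of 0.93. With AA, 83.7% of the 576 genes below 0.5 FPKM in AA+DMSO were higher, 18.6% by at least 2-fold, with a median of 0.52. Here 6 of the 9 genes began in this range, of which 5 were higher, 2 by at least 2-fold, with a median of 0.69. Being higher is thus common at these levels. Of the 7 genes, *Wnt3* at 1.64 and *Wnt7b* at 1.63 sit at the 95th percentile of their range without AA (1.63). The *Wnt7b* value rests on its 0 in PBS+DMSO. *Wnt9a* at 1.26 is above the upper quartile (0.90), and *Wnt4*, *Wnt8a* and *Mesp1* sit near it. *Tcf7* at -0.02 is below the lower quartile (0.23). The genes were chosen with this difference known, so nothing is read from these positions.

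**Figure D3:**
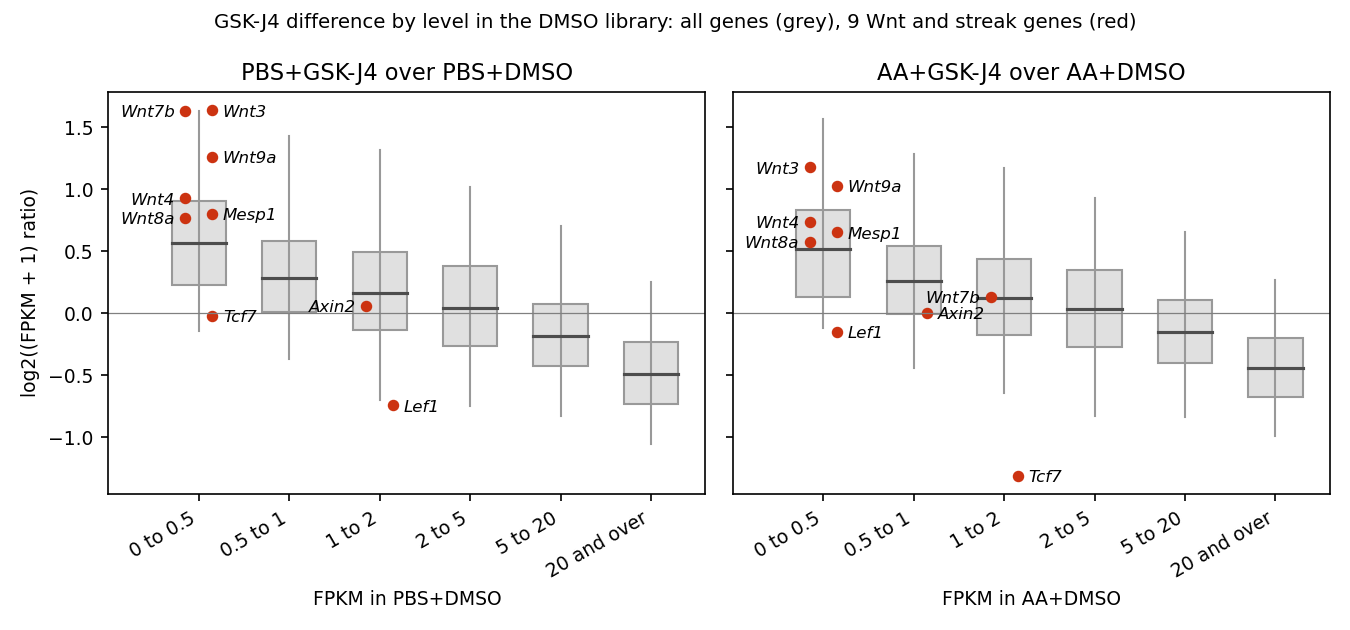
Log2((FPKM + 1) ratio) of GSK-J4 over DMSO for all genes, grouped by FPKM in the DMSO library (boxes: quartiles and median, lines: 5th to 95th percentile), without AA on the left and with AA on the right, and the 9 Wnt and streak genes as red points. The median falls from 0.57 in the lowest to -0.49 in the highest group without AA, and the ligands and *Mesp1* lie at or above the median of the lowest group, except *Wnt7b* with AA.

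**Figure D4:**
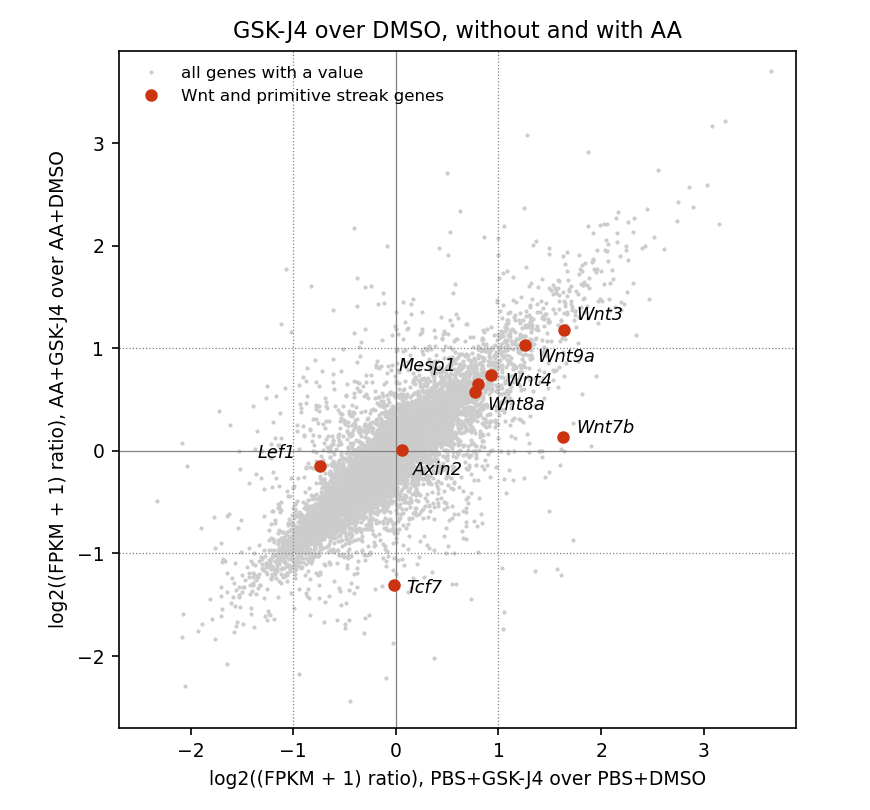
Log2((FPKM + 1) ratio) of GSK-J4 over DMSO without AA (horizontal) and with AA (vertical) for all 9779 genes in grey and the 9 genes in red, with dotted lines at 2-fold. *Wnt3*, *Wnt9a*, *Wnt4*, *Mesp1* and *Wnt8a* lie along the main cloud, and *Wnt7b* (1.63 and 0.13) and *Tcf7* (-0.02 and -1.31) lie off it.

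The other genes of the pathway were taken from lists by role, which include the genes above. Of 19 mouse Wnt ligand genes, 9 had a value, and all 9 were higher in the GSK-J4 library both without and with AA, with median log2(FPKM + 1) ratios of 0.83 and 0.61 against -0.17 and -0.16 over all genes. Of these 9 ligands 8 began below 1 FPKM in PBS+DMSO, where higher values were common as given above (medians of 0.57 and 0.52 below 0.5 FPKM), and 5 of the 9 were chosen on this difference. Their summed FPKM was 4.01, 16.6, 5.07 and 12.7. The 4 ligands that were not among the 10 genes were *Wnt5a*, *Wnt6*, *Wnt8b* and *Wnt10a*, and none of these reached 2-fold on this scale. *Wnt8b* went from 0.0497 to 0.862 FPKM (4 and 89 reads) without AA and from 0.125 to 0.521 (8 and 44 reads) with AA. All 9 ligands stayed higher when ratios were centred on the median gene or libraries were scaled by upper quartile or total. Rescaling says nothing about the ligands without a value. Why these have no value is not known here, so the shared direction of the 9 may depend in part on which ligands were listed.

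Of the 2 secretion genes, *Wls*, which encodes the carrier that takes Wnt proteins to the cell surface, was at 2.07 and 5.56 FPKM without AA and at 2.17 and 6.70 with AA, log2(FPKM + 1) ratios of 1.09 and 1.28. *Porcn*, the enzyme that attaches the lipid, was not 2-fold different. Of 18 receptor genes 12 had a value, none was at least 2-fold higher and 1 was lower in each comparison. It was *Fzd5*, at 12.5 and 5.58 FPKM without AA and 14.2 and 6.31 with AA, and its ratios of -1.04 and -1.05 fall short of 2-fold once libraries are rescaled. Of 16 secreted or membrane inhibitors 8 had a value, and of 13 genes of beta-catenin control and Dishevelled 11 did, and none of these reached 2-fold either way. *Ctnnb1*, beta-catenin itself, was at 264 and 202 FPKM without AA and 247 and 201 with AA.

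Among 14 TCF/LEF factors and cofactors, 10 had a value. None was at least 2-fold higher and 1 was lower in each comparison, *Pygo2* without AA and *Tcf7* with AA. Of the TCF/LEF factor genes with a value the most abundant was *Tcf7l1*, which encodes TCF3, at 34.8 and 18.8 FPKM without AA and 32.6 and 18.5 with AA, so that *Lef1* and *Tcf7* were scarce beside it in every library. Of 22 Wnt target genes 10 had a value. Without AA 2 were at least 2-fold higher (*Wnt3* and *Zfp703*, the latter listed at 0 in PBS+DMSO) and 1 lower (*Myc*), and with AA 1 was higher (*Wnt3*) and 3 lower (*Myc*, *Ccnd1* and *Tcf7*). The median target stood at 0.02 and -0.04. The calls of *Pygo2* and *Myc* without AA were lost under each rescaling, and with AA the 3 lower targets became 2 when centred on the median gene and 1 when scaled by upper quartile or total. *Myc* was at 15.3 and 6.49 FPKM without AA and 12.8 and 5.004 with AA.

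Of 25 primitive streak and early mesoderm genes 9 had a value, 3 of them at least 2-fold higher without AA (*Wnt3*, *Mesp2* and *Nodal*) and 1 with AA (*Wnt3*), and none lower. Over all genes reaching 1 FPKM, 4.96% and 4.13% were at least 2-fold higher, and 3.5% and 3.38% lower. The medians of the 9 were 0.77 and 0.58, the values of *Wnt8a*, which like *Wnt3* and *Mesp1* was chosen on the GSK-J4 difference. Of the rest, *Mesp2*, *Nodal* and *Snai1* were higher by any amount in both comparisons, and *Fgf4* and *Lefty2* lower. *Eomes* was lower without AA and higher with it. *Nodal*, the ligand that acts with Wnt3 in the streak, is far from the floor, at 42.02 and 105 FPKM without AA and 39.5 and 74.5 with AA. *T*, the marker gene most used for the streak, was not analysed here. The ESC markers, which also include *Fgf4*, were lower in 10 of 10 genes in both comparisons. With AA this was 8 of 10 when libraries were scaled to the same total. The medians of the ESC markers were -0.76 and -0.73. Most genes were lower, since 38.4% and 39.3% were higher by any amount, and genes of at least 20 FPKM in the DMSO library had medians of -0.49 and -0.44 with upper quartiles of -0.23 and -0.20. *Utf1* and *Lin28a* were at least 2-fold lower in both, at 167 and 55.2 and at 92.4 and 24.2 FPKM without AA. *Nanog* was at 162 and 95.7 FPKM without AA and 151 and 90.9 with AA. The 6 fibroblast markers were higher in 5 of 6 genes in both comparisons, with medians of 0.29 and 0.37.

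**Figure D5:**
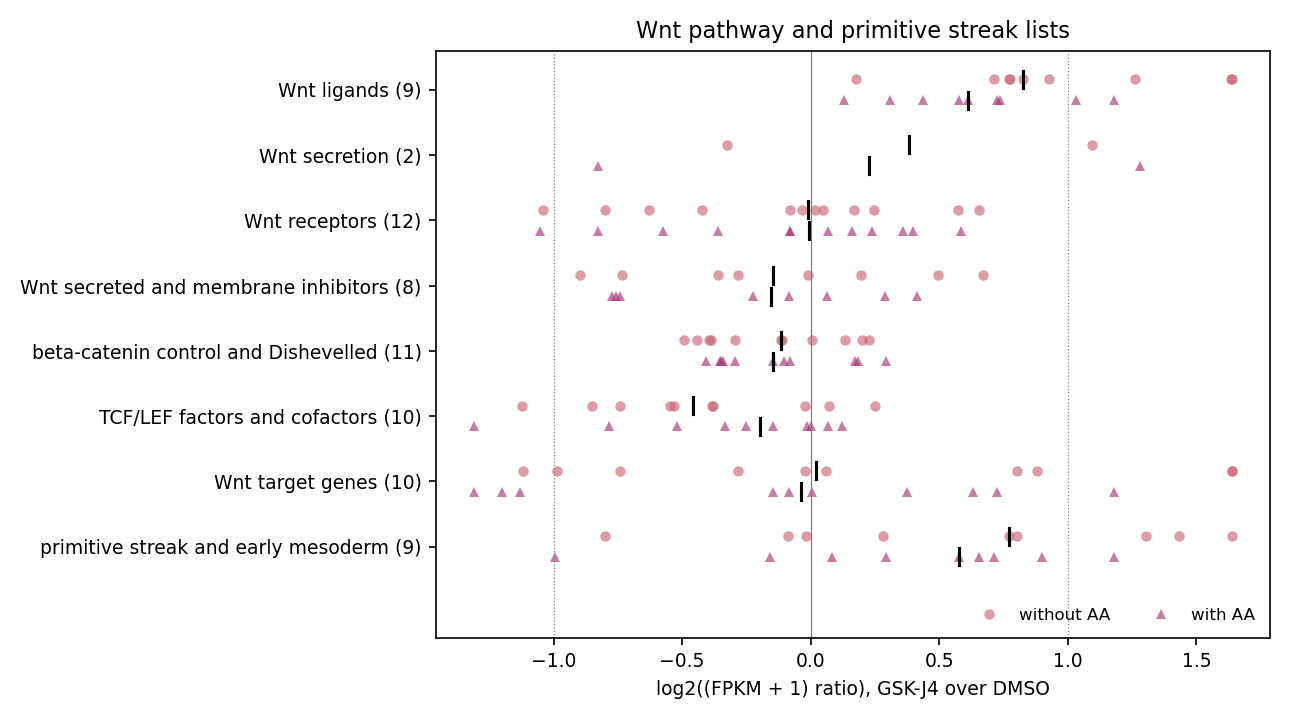
Log2((FPKM + 1) ratio) of GSK-J4 over DMSO for each gene with a value in the Wnt pathway and streak lists (number in brackets), without AA as circles and with AA as triangles, with a black bar at each median and dotted lines at 2-fold. All 9 ligands lie to the right of 0 in both comparisons, while receptors, inhibitors and beta-catenin genes spread around 0.

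The scaling of the libraries to each other moves these values together. Scaling to the same total FPKM moved the median log2 ratio of all genes from -0.17 to 0.16 when AA was absent and from -0.16 to 0.14 when it was present. The *Axin2* ratio moved likewise, to 0.28 and 0.14. The medians of the receptor, inhibitor and beta-catenin lists, which are near 0, change sign with it.

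Over the 4 libraries, the genes with the pattern nearest to that of *Wnt3*, by Euclidean distance of centred log2(FPKM + 1) values among 9362 genes, were *Fam159a* (distance 0.0831), *Mgat5b* (0.144) and *Lmo1* (0.150). *Fam159a* was at 0.886, 4.78, 0.758 and 2.77 FPKM. Nearest to *Lef1* were *Atp10a* (0.104), *Islr2* (0.164) and *Fbxw17* (0.180), of which *Atp10a* was at 5.15, 2.36, 2.35 and 1.97 FPKM. With 4 libraries, many genes can share a pattern.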

How the data were processed

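RNA-Seq of 4 libraries, 1 per condition, was analysed. The members and gene lists were chosen with earlier results of these data known. Samples were grouped by their GEO titles. Labels describe total RNA and an Illumina TrueSeq DNA kit, and strand is not stated. The authors removed duplicate reads, which lowers highly expressed genes most, from single-end data, aligned them with TopHat2 (mm10, per the labels) and computed FPKM with Cufflinks2. They deposited FPKM per coding sequence group in 2 tables, headed log10 although the values are linear, since they are never negative and pass 100. The scaling between libraries is not given in the sources used here. Other deposited columns hold the authors' own fold changes, test statistics and p-values and were not used.

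Rows were summed per gene (11033 rows, 9936 names). The 157 genes with a failed estimate were left out, which can remove genes of any level, and 9779 remained. Ratios are log2((FPKM + 1)/(FPKM + 1)). Counts used 2-fold and a minimum of 1 FPKM in one or other library. Relative depth came from whole-read steps in genes with 1 row and low FPKM. Ratios were also doubled and divided by 2, and those with the most equal split of even and odd numbers were kept. With them 47.9% of 1788 genes of 0.02 to 3 FPKM in all libraries were whole (within 0.005 reads plus 1e-05 of the number), and 0.336% and 0.391% were with ratios off by 1%. Total reads are unknown. Intervals are exact (Poisson, and binomial for ratios, at 95%). Scripts were tested on simulated data. The genes named beyond the 10 are list genes at least 2-fold different in the same direction in both GSK-J4 comparisons, *T*, *Nodal*, *Ctnnb1*, *Tcf7l1*, *Pou5f1*, *Nanog*, and the 3 genes nearest to *Wnt3* and to *Lef1*. Those named to explain a count or a median, and *Porcn*, *Sox7* and *Wnt8b*, were chosen after their values were seen. Software was pandas 2.3.3, numpy 2.4.6 and scipy 1.17.1 under Python 3.11.15, with figures from matplotlib 3.10.9. Alternatives were pseudocounts of 0.1 and 5, 3 filters, 3 scalings, thresholds of 1.5-fold and 4-fold, the largest row of a gene, failed estimates kept and, added after seeing the data, members in whole reads only.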

Additional observations from a re-analysis of the deposited data

Results flagged for a closer look

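For 4 genes the log2(FPKM + 1) ratio of AA to PBS had one sign without GSK-J4 and the other with it. With 1 library per condition the difference was not tested. *Wnt7b* was at 1.10 without and -0.41 with GSK-J4, a difference of -1.50, and the first value rests on a PBS+DMSO value of 0. *Wnt4* was at 0.03 and -0.16 (difference -0.19), *Wnt9a* at 0.01 and -0.22 (difference -0.23) and *Mesp1* at 0.003 and -0.15 (difference -0.15). Without GSK-J4 the counting interval of the FPKM ratio includes 1 for these 3, and with GSK-J4 it includes 1 for *Wnt4* and *Mesp1* and lies below 1 for *Wnt9a* (0.649 to 0.962). For *Wnt4* this holds at its smallest whole numbers of reads.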

How the results depend on the processing

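Without replicates the results are counts of members past 2-fold and log2 ratios. For GSK-J4 without AA, the 3 higher members became 5 with a pseudocount of 0.1 or a 1.5-fold threshold and 0 with a pseudocount of 5, at 4-fold, or with 1 FPKM required in both libraries, which leaves 1 member. The 0 lower members became 1 (*Lef1*) with a pseudocount of 0.1 or at 1.5-fold. With AA, the 2 higher and 1 lower became 0 with a pseudocount of 5, at 4-fold and with at least 1 FPKM in both libraries, and the lower count also became 0 among members in whole reads only. For AA without GSK-J4, the 2 higher became 0 with a pseudocount of 5, at 4-fold and among members in whole reads only, and the 0 lower became 1 with a pseudocount of 0.1 or at 1.5-fold. For AA with GSK-J4, the 0 lower became 1 at 1.5-fold. A minimum of 5 FPKM left no member in any comparison, and 1 FPKM required in both libraries left none for AA without GSK-J4. Counting members in whole reads only leaves out *Wnt7b*, *Lef1* and *Tcf7*, and a filter leaves out members by its construction. For the other settings the cause was not tested. The other 74 of 94 counts were within 1.5 times. Of 252 log2 ratios of single genes, 231 kept their side of 2-fold and their sign, 11 passed it, 8 lost it and 2 near 0 changed sign with centring on the median (*Tcf7* without AA to 0.15, *Lef1* with AA to 0.01). *Wnt4* without AA passed 2-fold under each scaling (1.05 to 1.10). No paired analysis was possible because each condition has 1 library and the labels give no replicate numbers. Among the genes counted in reads, *Wnt4* has the widest intervals for its size, at smallest whole numbers of 6 to 40 reads. A multiple of these numbers would narrow them.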
